A study of Mus musculus with 15 samples.

Results

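The clock genes Dbp and Arntl, which peak at opposite times of day, were used to order the ileum samples of 15 female C57BL/6 mice (C57BL/6JOlaHsd per the methods). Each mouse was given the value log2((FPKM of Dbp + 0.1)/(FPKM of Arntl + 0.1)), where FPKM counts the sequenced fragments of a gene per unit of gene length and of library size. The 5 mice with the highest value, called high-ratio mice here, were compared with the 5 mice with the lowest value, called low-ratio mice. The other 5 were called middle mice. The groups were thus chosen by the measured FPKM of Dbp and Arntl, and treatment took no part in the choice.

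The mice were 8 weeks of age according to the labels, ate a purified control diet and were gavaged every 2 days for 10 days. One group of 5 received water and the others received 200 mg/kg of proanthocyanidins (PAC), polyphenol polymers purified from grape. One PAC preparation was of low mean degree of polymerization (low mDP PAC, called Low_PAC in the labels, 5 mice) and the other of medium mDP (5 mice, called High_PAC in the labels and taken here as the medium mDP PAC group of the methods). The high-ratio and the low-ratio group each held 1 water mouse, 2 low mDP PAC mice and 2 medium mDP PAC mice, and the middle mice were 3, 1 and 1. The time of day at which each mouse was killed was not given in the sources used here, and each library came from 1 piece of ileum that held epithelium, muscle and immune cells together. In such bulk samples, fewer cells of a type and less RNA per cell cannot be told apart.

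The circadian clock is a feedback loop that runs in nearly every cell. ARNTL, also called BMAL1, pairs with CLOCK or NPAS2 and switches on genes that carry an E-box, among them the period and cryptochrome genes, whose proteins then repress the pair, and the genes of the REV-ERB receptors (Nr1d1 and Nr1d2). REV-ERB receptors repress and ROR receptors activate Arntl, Npas2 and Nfil3 through ROR elements. The PAR bZIP factors DBP, TEF and HLF activate genes with a D-box, which NFIL3 represses. In the intestine these genes follow mealtimes as well as light, and the clock sets daily rhythms in nutrient uptake and lipid handling.

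These 3 elements were looked for in the 300 bases around the start sites of RefSeq (GRCm38.p6, 250 before to 50 after the start), in 32851 windows of all genes and 24 windows of the 18 clock genes that matched. The E-box CACGTG, which reads the same on both strands, stood in 7.15% of all windows and in 6 of the 24 clock windows. These 6 belonged to 5 clock genes, Bhlhe41, Ciart, Cry1, Per1 and Tef. The D-box TTATGTAA, TTACATAA or TTACGTAA stood in 1.06% of all windows and in 1 of the 24 clock windows, that of Per3. The ROR element TAGGTCA or TGGGTCA, on either strand, stood in 6.45% of all windows and in 2 of the 24 clock windows. These were windows of Arntl and Nfil3. A match is a description of the letters and was not tested as a binding site. Stretches with an E-box or a D-box are shown for 3 of the genes with the largest differences between the groups, with the matches in capitals, 5′ to 3′ on the strand of the gene. They lie outside the RefSeq gene bodies, at chr3:95882259-95882353 (minus strand), chr4:151044806-151044880 (minus strand) and chr15:81802533-81802562 (plus strand).
Ciart, 3 E-boxes 116, 58 and 44 bases before the start: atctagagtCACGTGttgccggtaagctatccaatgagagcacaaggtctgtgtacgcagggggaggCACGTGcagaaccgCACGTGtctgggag
Per3, 2 D-boxes 205 and 158 bases before the start: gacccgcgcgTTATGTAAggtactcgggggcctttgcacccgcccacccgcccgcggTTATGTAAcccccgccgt
Tef, 1 E-box 127 bases before the start: ggtgctgtggctcCACGTGctgcagctggc

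The values that chose the high-ratio and the low-ratio mice are a description, with no test between these groups. Dbp, the PAR bZIP factor with the strongest daily swing in most tissues, had 35.8, 25.9, 28.9, 21.5 and 20.5 FPKM in the high-ratio mice from the top of the ranking down. In the low-ratio mice it had 8.90, 7.86, 6.15, 5.34 and 3.73 FPKM, and in the middle mice 11.2 to 15.5 FPKM. Arntl had 5.65 to 7.95 FPKM in the high-ratio mice, 9.47 to 14.3 in the middle mice and 12.6 to 20.01 in the low-ratio mice. Neither gene overlapped between the high-ratio and the low-ratio mice. Dbp spanned 9.61-fold between its highest and lowest mouse and Arntl 3.54-fold.

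The mice formed a graded series rather than 2 separate sets. The log2 ratio ran from 2.64 in medium mDP PAC mouse 1 to -2.39 in medium mDP PAC mouse 4, a 32.8-fold span of the linear ratio. The means were 1.93 ± 0.53 in the high-ratio and -1.23 ± 0.72 in the low-ratio mice (SD, n = 5 each). The last high-ratio mouse, low mDP PAC mouse 3, had 1.35 and the first middle mouse, water mouse 3, had 0.52. At the lower limit, low mDP PAC mouse 2 was a middle mouse at -0.35 and low mDP PAC mouse 1 was a low-ratio mouse at -0.50, so this limit cut through mice that were 0.15 apart. The working name of opposite clock phase could not be checked against a clock time, and Nr1d1 was expressed at 36.0 FPKM or more in every mouse.

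**Figure D1:**
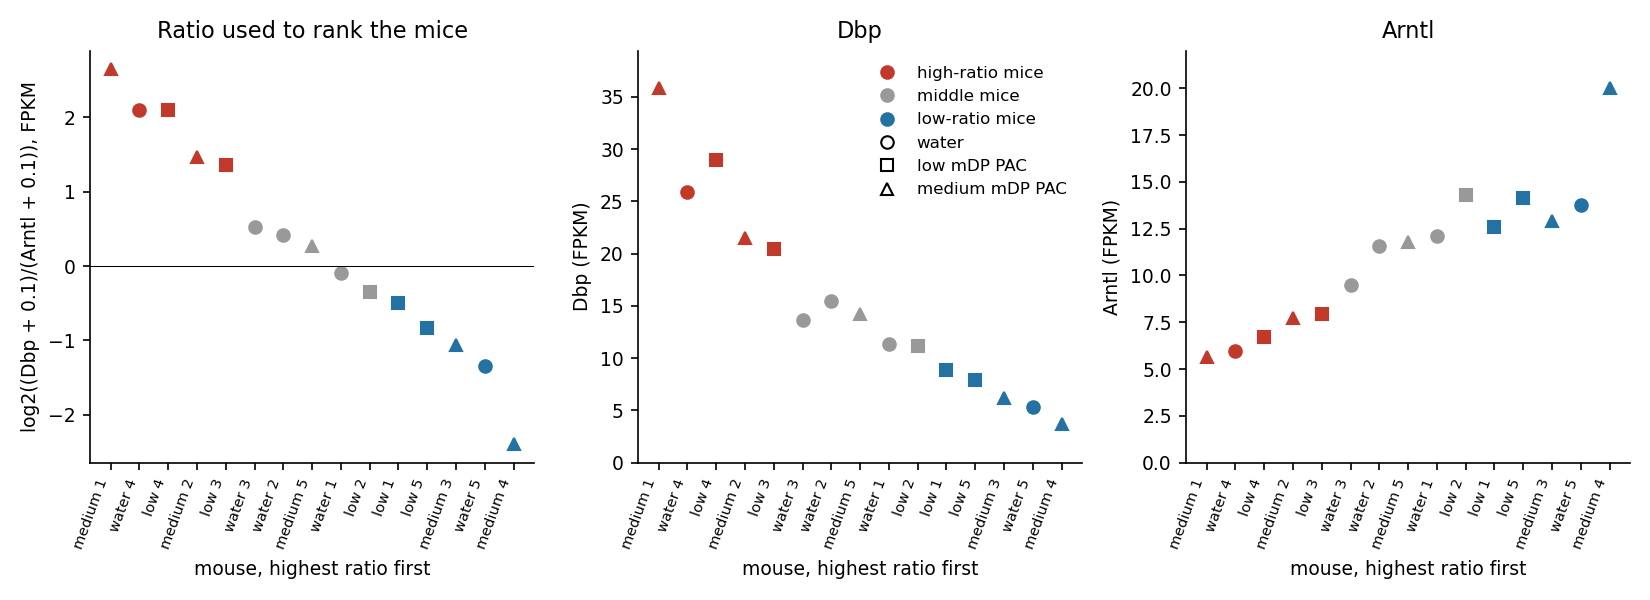
The log2 ratio of Dbp to Arntl (left), Dbp in FPKM (middle) and Arntl in FPKM (right) for each of the 15 mice, ordered by the ratio; colour gives the ratio group and shape the treatment. The ratio falls in steps from 2.64 to -2.39, with the 5 middle mice between 0.52 and -0.35.

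Whether treatment moved the ratio can be asked, because treatment was not used in the ranking. The log2 ratio was 0.32 ± 1.24 in water mice, 0.35 ± 1.29 in low mDP PAC mice and 0.19 ± 1.99 in medium mDP PAC mice (SD, n = 5 each). The highest and the lowest mouse of the series were both medium mDP PAC mice. Medium mDP PAC and water differed by -0.13 on the log2 scale (two-sided exact permutation test, p = 0.905, adjusted over the 3 pairs 0.9603). Low mDP PAC and water differed by 0.03 (exact p = 0.9603) and medium and low mDP PAC by -0.17 (exact p = 0.873). These differences were far smaller than the spread within each group, and the smallest p that 5 against 5 mice allow is 0.0079.

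A second pair of clock genes that peak apart, Nr1d1 and Npas2, ordered the mice in nearly the same way. Over the 15 mice, log2((Nr1d1 + 0.1)/(Npas2 + 0.1)) and the ratio of Dbp to Arntl had a Pearson r of 0.972 and a Spearman rho of 0.936 (n = 15). This is a description with no test, since Dbp and Arntl chose the mice, all 4 genes belong to 1 feedback loop and both ratios come from the same libraries. The r was 0.956 without the 2 mice farthest from the median and 0.973 after each treatment mean was subtracted. It was the single relation of this kind computed. A ranking by Nr1d1 and Npas2 gave the same 5 high mice and 3 of the 5 low mice.

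The expected counts of a library summed to between 15963086 and 17903886, with a median of 17507517 in the high-ratio and 17554554 in the low-ratio mice. Medium mDP PAC mouse 3, a low-ratio mouse, stood apart in its tissue makeup. Its summed FPKM was above all other low-ratio mice in the marker lists of crypt stem, Paneth, goblet, enteroendocrine, tuft, follicle B, plasma, T, macrophage and red blood cells, of enteric neurons and of the distal ileum. For enteric neurons the margin was small, at 18.6 against 17.7 to 18.05 FPKM, and high-ratio mice reached 21.9 FPKM. In follicle B markers it had 221 FPKM, and a high-ratio mouse had 232 FPKM. Red blood cell markers summed to 184 FPKM in medium mDP PAC mouse 3 and to 38.9 to 75.5 FPKM in the other low-ratio mice. Results without it are given beside those that rest on it. The markers of enterocytes summed to 12070 to 15838 FPKM in the high-ratio and 8918 to 15637 in the low-ratio mice, and those of the distal ileum to 5006 to 8502 and 4800 to 11306. Markers of exocrine pancreas were near 0 (1.35 to 2.84 FPKM), with 2 of 5 at 0 in all 10 mice.

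In the comparison of the 10 mice, 3 of 14244 genes passed an adjusted p under 0.05 (0.0211%, edgeR quasi-likelihood test with treatment as covariate), all 3 higher in high-ratio mice. Of these, 2 were period genes, Per2 and Per3, and the third was Gramd2. An unadjusted p under 0.05 was reached by 733 genes, 5.15% of those tested, of which 360 (2.53%) were higher and 373 (2.62%) lower in high-ratio mice. That share is close to the threshold itself. FPKM ranges that did not overlap between the groups were found for 140 genes (0.983%), with the high-ratio mice above for 79 (0.555%) and below for 61 (0.428%). Dbp and Arntl were left out of the test and of the adjustment. The other clock genes were measured in the libraries that ranked the mice, so their p-values say whether they followed the ranking.

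Clock genes held a large part of the short list. Of 21 genes in the clock lists, 19 took no part in the ranking, and 18 of these passed the filter on low counts. The filter left out Rorb, a ROR receptor at 0.01 to 0.05 FPKM in these mice. An unadjusted p under 0.05 was reached by 13 of the 18, against 5.15% of all genes, with 11 higher and 2 lower in high-ratio mice. Ranges did not overlap for 8 of the 18, against 0.983% of all genes. Clock genes made up 6 of the 10 and 8 of the 20 genes with the smallest p. The median log2 fold change of the 18 was 0.55, and that of all genes tested was -0.0087. All 13 differed in the same direction within water, low mDP PAC and medium mDP PAC mice, and for 12 of the 13 (all but Per1) the mean of the middle mice lay between the means of the compared groups.

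Of the 5 period and cryptochrome genes, Per2 and Per3 were higher in high-ratio mice at the adjusted threshold, and Per1 and Cry2 at an unadjusted p under 0.05. Per2, a repressor of the ARNTL pair, had 14.3, 12.0, 14.8, 7.43 and 12.7 FPKM in the high-ratio mice and 6.01, 4.69, 3.77, 5.21 and 3.55 in the low-ratio mice. The groups did not overlap, although medium mDP PAC mouse 2 stood near the low-ratio mice. The means were 12.2 ± 2.93 and 4.65 ± 1.02 FPKM (SD, n = 5), a log2 fold change of 1.42 ± 0.16 (SE, edgeR adjusted p = 0.0447). The exact permutation p, without covariate, was 0.0079. That is the smallest p that 5 against 5 mice allow, and groups without overlap always reach it. The gene (NCBI gene 18627) lies at chr1:91415977-91459351 of GRCm38.p6.

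Per3, at chr4:150997018-151044707 (gene 18628, minus strand) and the clock gene whose promoter window held the D-boxes printed above, had 8.96, 6.96, 9.42, 5.18 and 5.65 FPKM in the high-ratio mice. In the low-ratio mice it had 3.36, 2.92, 2.24, 2.30 and 1.88 FPKM, all below every high-ratio mouse. Its log2 fold change was 1.54 ± 0.18 (SE, edgeR adjusted p = 0.0447). Cry2 was even among the high-ratio mice, at 6.18 to 6.61 FPKM, and had 2.84 to 4.71 FPKM in the low-ratio mice. Its log2 fold change was 0.62 ± 0.12 (SE, edgeR unadjusted p = 0.000412, adjusted 0.326). Per1 had 8.70 to 17.0 FPKM against 4.70 to 10.1 with overlap (log2 fold change 0.65, edgeR unadjusted p = 0.0012, adjusted 0.591). Its exact permutation p, without covariate, was 0.103. Cry1, whose protein acts late in the cycle, was not different by the test. Its means were 4.88 ± 0.58 and 5.99 ± 1.48 FPKM (edgeR unadjusted p = 0.135).

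Without medium mDP PAC mouse 2 the same 3 genes passed, Per2 (edgeR adjusted p = 0.0121), Per3 (0.0486) and Gramd2 (0.0319), and leaving out any 1 of the other 9 mice changed which genes passed. No gene passed an adjusted p under 0.05 in edgeR without low mDP PAC mouse 4 (lowest adjusted p 0.130), low mDP PAC mouse 1 (0.0977), low mDP PAC mouse 5 (0.230), medium mDP PAC mouse 3 (0.177) or medium mDP PAC mouse 4 (0.147). The same held without water mouse 4 (0.403) or water mouse 5 (0.387), after which the lone water mouse adds nothing to a fit with treatment. Per3 alone passed without low mDP PAC mouse 3 (edgeR adjusted p = 0.0306). Without medium mDP PAC mouse 1, the highest of the ranking, 4 clock genes passed, Per2 at 0.0103 and Per3, Ciart and Nfil3 at 0.0480, and Gramd2 did not (0.144). The sizes moved little, from 1.26 to 1.53 for Per2, 1.39 to 1.69 for Per3 and 1.04 to 1.19 for Gramd2 on the log2 scale. DESeq2 called 35 genes (0.246%), among them 10 of the clock genes.

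**Figure D2:**
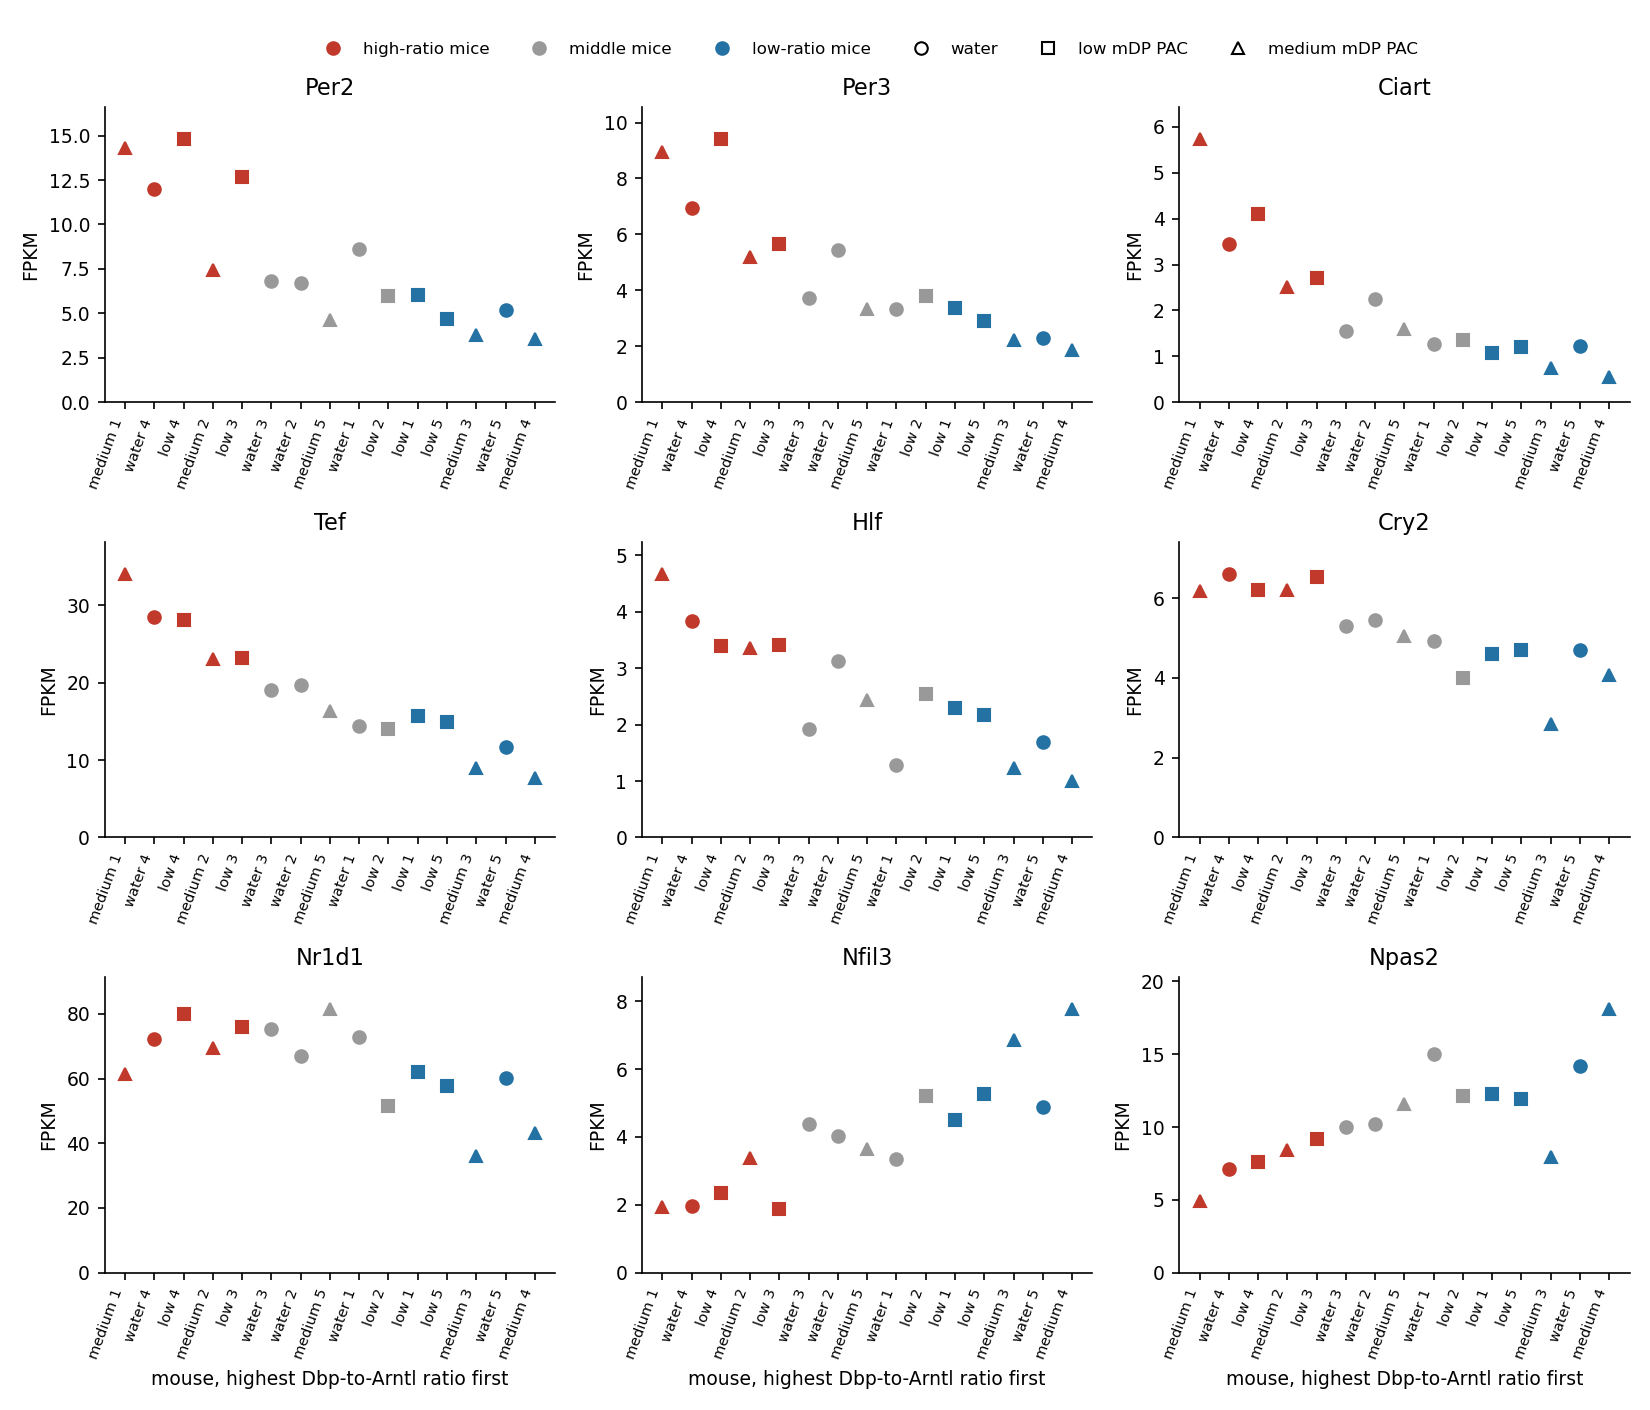
FPKM of 9 clock genes in each of the 15 mice, ordered from the highest to the lowest ratio of Dbp to Arntl; colour gives the ratio group and shape the treatment. Per2, Per3, Ciart, Tef, Hlf and Cry2 are higher in every high-ratio than in every low-ratio mouse, Nfil3 is lower, and Nr1d1 and Npas2 overlap.

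Of the other repressors that act at E-boxes, Ciart had the largest log2 fold change of the tested clock genes. Ciart encodes a repressor of the ARNTL pair, and its promoter window held the 3 E-boxes printed above. It had 5.74, 3.45, 4.10, 2.51 and 2.71 FPKM in the high-ratio and 1.08, 1.21, 0.75, 1.22 and 0.56 FPKM in the low-ratio mice. The groups did not overlap, and the log2 fold change was 1.96 ± 0.29 (SE, edgeR unadjusted p = 5.74e-05, adjusted 0.124). Bhlhe41 (DEC2) was low in all mice, at 0.75 to 1.5 FPKM against 0.49 to 0.73 (log2 fold change 0.75, edgeR unadjusted p = 0.00452, adjusted 0.831). Its relative Bhlhe40 (DEC1) had 26.8 to 40.4 against 24.3 to 31.4 FPKM and did not pass (edgeR unadjusted p = 0.0567).

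Of the PAR bZIP factors and their antagonist, Tef and Hlf were higher and Nfil3 was lower in high-ratio mice at an unadjusted p under 0.05. Tef had 34.0, 28.5, 28.1, 23.0 and 23.2 FPKM in the high-ratio and 15.7, 14.96, 8.96, 11.6 and 7.62 FPKM in the low-ratio mice, without overlap. Its log2 fold change was 1.27 ± 0.18 (SE, edgeR unadjusted p = 3.84e-05, adjusted 0.109). Hlf, the least abundant PAR bZIP factor, had 3.35 to 4.67 FPKM in the high-ratio and 1.00 to 2.29 FPKM in the low-ratio mice (log2 fold change 1.22 ± 0.21, edgeR adjusted p = 0.226). Nfil3, the D-box repressor, had 1.94, 1.96, 2.36, 3.38 and 1.89 FPKM in the high-ratio mice and 4.49, 5.26, 6.85, 4.89 and 7.77 FPKM in the low-ratio mice. Every high-ratio mouse was below every low-ratio mouse (log2 fold change -1.31 ± 0.17, SE, edgeR unadjusted p = 1.70e-05, adjusted 0.0605). In the promoter window of Nfil3 the ROR element stood 12 bases before the start.

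The nuclear receptors had smaller fold changes. Nr1d1 (REV-ERB alpha) was the most abundant clock gene by FPKM in every mouse, at 61.4 to 79.9 FPKM in the high-ratio and 36.0 to 61.9 FPKM in the low-ratio mice, which overlapped by 1 mouse on each side. Its log2 fold change was 0.51 ± 0.10 (SE, edgeR unadjusted p = 0.000456, adjusted 0.342). The middle mice had as much Nr1d1 as the high-ratio mice, with means of 69.6 and 71.8 FPKM. Nr1d2 (REV-ERB beta) had a log2 fold change of 0.57 (edgeR adjusted p = 0.727). Rora was even at 1.58 ± 0.15 and 1.65 ± 0.14 FPKM (SD, n = 5, edgeR unadjusted p = 0.653).

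Among the activators, Npas2 was lower in high-ratio mice at an unadjusted p under 0.05, and Clock and Arntl2 did not pass. Npas2, a partner of ARNTL, had 4.94, 7.10, 7.60, 8.45 and 9.18 FPKM in the high-ratio and 12.3, 11.9, 7.95, 14.2 and 18.1 FPKM in the low-ratio mice. Medium mDP PAC mouse 3 was the 1 low-ratio mouse within the high-ratio range. The log2 fold change was -0.78 ± 0.23 (SE, edgeR unadjusted p = 0.00749, adjusted 0.906), and -0.91 without that mouse. Clock had 13.3 ± 1.01 and 14.7 ± 1.87 FPKM (edgeR unadjusted p = 0.254), and Arntl2, a relative of Arntl, had 0.63 ± 0.11 and 0.54 ± 0.15 FPKM (edgeR unadjusted p = 0.421). Arntl itself, used in the ranking, had a log2 fold change of -1.09 and Dbp one of 2.10.

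**Figure D3:**
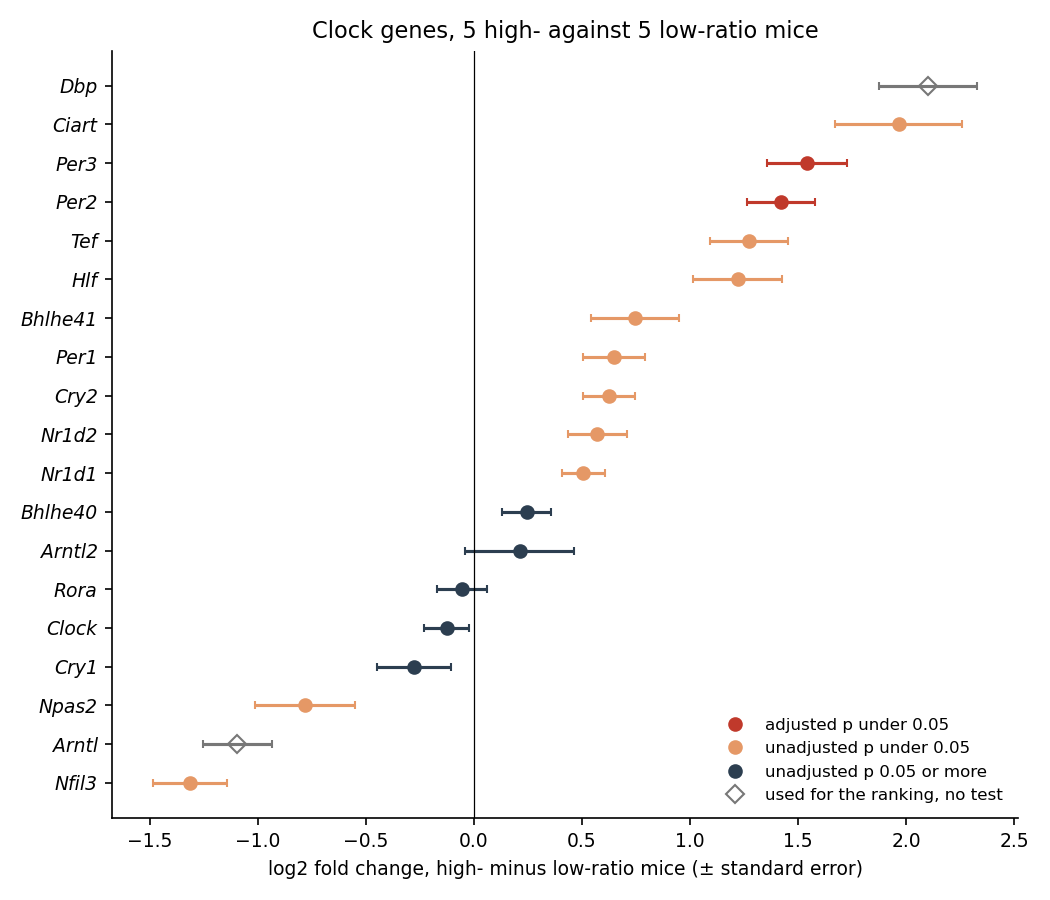
Log2 fold change of clock genes between the 5 high-ratio and 5 low-ratio mice with its standard error, ordered by size; Dbp and Arntl, drawn as open diamonds, chose the mice and have no test. Per2 and Per3 (red) pass an adjusted p under 0.05, orange points an unadjusted p under 0.05, and Nfil3 at -1.31 and Ciart at 1.96 are the ends of the tested genes.

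All 15 mice can be used when the ratio enters as a number in place of 2 groups. The slope is then the log2 change of a gene for each unit of the log2 ratio. In that fit 11 of 14384 genes passed an adjusted p under 0.05 (0.0765%, edgeR), and 8 of them were clock genes. In edgeR, Tef had a slope of 0.41 (adjusted p = 6.42e-07), Per3 0.47 (7.96e-06), Ciart 0.62 (1.60e-05), Per2 0.42 (0.0006), Hlf 0.39 (0.00437) and Nr1d2 0.19 (0.0112). Nfil3 had a slope of -0.41 (edgeR adjusted p = 0.00362) and Npas2 one of -0.29 (0.0392). The other 3 genes were Cipc, an inhibitor of CLOCK, at 0.15 (0.00613), Slc20a1, a phosphate transporter, at 0.14 (0.0116), and Glipr2 at -0.20 (0.00485). These 3 were in no list and were chosen for mention after their values were seen. Cipc had 17.8 to 23.0 FPKM in the high-ratio and 13.5 to 18.8 FPKM in the low-ratio mice.

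Gramd2, the gene outside the clock lists that passed in the comparison of 10 mice, had 3.00, 2.99, 3.23, 2.17 and 2.86 FPKM in the high-ratio mice. In the low-ratio mice it was narrow, at 1.41, 1.29, 1.28, 1.24 and 1.48 FPKM, below every high-ratio mouse. Its log2 fold change was 1.09 ± 0.13 (SE, edgeR adjusted p = 0.0447). The gene (NCBI gene 546134) lies at chr9:59679833-59718873 on the plus strand. In the fit of all 15 mice it had an edgeR adjusted p of 0.0900, and under the ranking by Nr1d1 and Npas2 its log2 fold change was 0.68 (adjusted p = 0.352). Tns4, a focal adhesion protein gene chosen for mention after its values were seen, had 35.9 to 44.5 FPKM against 16.5 to 33.1 FPKM (log2 fold change 0.88, edgeR adjusted p = 0.124), and the middle mice, at 33.8 to 40.2 FPKM, were near the high-ratio mice.

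Known output genes of the clock differed in a few members. Of 10 tested, 3 were higher and 1 lower at an unadjusted p under 0.05, against 2.53% and 2.62% of all genes, and none had an adjusted p under 0.05 (lowest 0.177, edgeR). Usp2, a deubiquitinase with a strong daily rhythm in many tissues, had 21.7, 22.5, 19.6, 15.5 and 22.2 FPKM in the high-ratio and 13.3, 11.8, 10.6, 11.9 and 13.8 FPKM in the low-ratio mice. The groups did not overlap (log2 fold change 0.73 ± 0.12, SE, edgeR unadjusted p = 0.000112, adjusted 0.177). Tspan4, a tetraspanin gene, had 4.89 to 6.30 FPKM against 2.94 to 4.26 FPKM, also without overlap (log2 fold change 0.59, edgeR unadjusted p = 0.00276). Cdkn1a, a cell cycle inhibitor, had a log2 fold change of 0.29 and Avpr1a, the vasopressin receptor, one of -0.57. Avpr1a, the 1 lower member, no longer reached the unadjusted threshold without low mDP PAC mouse 1, low mDP PAC mouse 4, medium mDP PAC mouse 1 or medium mDP PAC mouse 4. Wee1, Nampt, Por, Klf10, Lpin1 and Rgs16 did not pass. None of the 10 genes listed as modifiers of clock proteins, 9 for kinase subunits and ubiquitin ligases and the RNA-binding protein gene Nono, reached an unadjusted p under 0.05, which is near the 5.15% of all genes, and their log2 fold changes ran from -0.30 to 0.10.

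Signals that can reset or follow the clock were read from 4 further lists. None of 12 heat shock genes, 2 cold-inducible RNA-binding genes and 11 immediate early genes reached an unadjusted p under 0.05, a count near the 5.15% of all genes. Of 12 glucocorticoid-responsive genes, Nfkbia (log2 fold change -0.47) and Mt2 (-0.69) were lower at an unadjusted p under 0.05 in edgeR, against 2.62% of all genes. By exact permutation without covariate their p was 0.103 and 0.063. The other 10, among them Fkbp5, Tsc22d3 and Sgk1, did not pass. The count of 2 was 4 without low mDP PAC mouse 5. The median of the 12 was -0.14, and it was 0.17 without low mDP PAC mouse 4, 0.05 without low mDP PAC mouse 5, -0.02 without water mouse 4 or water mouse 5, -0.28 without medium mDP PAC mouse 3 and -0.20 without low mDP PAC mouse 3. Under the ranking by Nr1d1 and Npas2 it was 0.22, with 2 members higher and 1 lower. Over all 14 settings other than leaving out a mouse (alternative tests, normalizations, filters, group sizes, rankings and blocks) 1 to 4 members were lower and 0 to 2 higher. None of these lists had an adjusted p under 0.05, with the lowest at 0.906.

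No gene of the metabolic lists passed the adjusted test. All 19 genes of sterol synthesis had a log2 fold change above 0, against 47.5% of all genes, and 8 reached an unadjusted p under 0.05, against 2.53% of all genes that were higher (median log2 fold change 0.28). Insig1, a sensor of sterols, had 49.0 ± 2.55 and 35.8 ± 10.3 FPKM (SD, n = 5, log2 fold change 0.49, edgeR unadjusted p = 0.0106), and the enzyme genes Lss and Mvd had log2 fold changes of 0.48 and 0.46. The count of 8 was 3 without water mouse 4 or water mouse 5, 5 without low mDP PAC mouse 5 and 13 without medium mDP PAC mouse 2. Without water mouse 4 or water mouse 5, 16 of the 19 were above 0 and the median was 0.16. Under the ranking by Nr1d1 and Npas2 the count was 0 of 19, against 4.15% of all genes that were higher in that ranking, with a median of 0.04. Over all 14 other settings it ran from 0 to 8, and 13 to 19 members were above 0. With the replicate block it was 2, and the median was 0.15.

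All 9 genes of fatty acid synthesis had a log2 fold change above 0, against 47.5% of all genes (median 0.66), and 3 reached an unadjusted p under 0.05, against 2.53%. Srebf1, the transcription factor that drives this pathway, had 17.1, 20.3, 21.8, 17.4 and 18.7 FPKM in the high-ratio mice and 16.7, 13.9, 15.9, 15.1 and 12.3 FPKM in the low-ratio mice. The groups did not overlap by a narrow margin (log2 fold change 0.38, edgeR unadjusted p = 0.00154, adjusted 0.639). Scd2 had a log2 fold change of 0.71 and Fasn, fatty acid synthase, one of 0.94, with Fasn overlapping widely at 68.9 to 155 against 18.1 to 159 FPKM. The adipocyte markers Adipoq, Plin1, Cfd and Lep moved the same way, with 4 of 4 above 0 (median 0.86, none at an unadjusted p under 0.05). Their summed FPKM was 129 to 262 in the high-ratio and 30.5 to 220 in the low-ratio mice. Mesothelium markers were above 0 in 4 of 5 (median 0.50), and in 5 of 5 (median 0.89) under the ranking by Nr1d1 and Npas2. None of the mesothelium markers reached an unadjusted p under 0.05 in either ranking. The part of adipocytes and mesothelium in the result was not tested. The count of 3 was 9 without low mDP PAC mouse 1, 7 without low mDP PAC mouse 4, 3 without medium mDP PAC mouse 1 and 2 without any 1 of the others, and the median was 0.42 without medium mDP PAC mouse 2. Under the ranking by Nr1d1 and Npas2 it was 8 of 9, against 4.15% of all genes, with a median of 0.94, and the 4 adipocyte markers were then all higher at an unadjusted p under 0.05 (median 1.75). With the replicate block it was 1, with 7 of 9 above 0 and a median of 0.24. Over all 14 other settings it ran from 1 to 8.

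Sugar digestion genes and genes for uptake of sugar, peptide and sodium were above 0 in 8 of 9, against 47.5% of all genes. Their median was 0.49, and 2 reached an unadjusted p under 0.05, against 2.53%. The median was 0.25 without medium mDP PAC mouse 3. Slc2a5, the fructose transporter GLUT5, had 24.9, 28.5, 24.0, 24.8 and 26.5 FPKM in the high-ratio and 16.5, 21.1, 9.47, 18.4 and 10.8 FPKM in the low-ratio mice. The groups did not overlap (log2 fold change 0.82 ± 0.15, SE, edgeR unadjusted p = 0.000304, adjusted 0.2802), and the fold change was 0.72 without medium mDP PAC mouse 3. Slc15a1, the peptide transporter PEPT1, had 224 ± 64.6 and 161 ± 81.0 FPKM (log2 fold change 0.58, edgeR unadjusted p = 0.0493). Enterocyte markers were above 0 in 7 of 7 with a median of 0.19, none at an unadjusted p under 0.05, and in 6 of 7 with a median of 0.05 without medium mDP PAC mouse 3. Their part in the result was not tested. The count of 2 was 7 without low mDP PAC mouse 4, 5 without low mDP PAC mouse 5, 2 without medium mDP PAC mouse 3 and 1 without any 1 of the others. Under the ranking by Nr1d1 and Npas2 it was 7 of 9, against 4.15% of all genes, with a median of 0.68. Of the markers of the proximal small intestine 4 of 5 were then above 0 (median 0.34, 2 higher at an unadjusted p under 0.05) and of those of the distal ileum 1 of 5 (median -0.13), against 2 and 4 of 5 in the ranking by Dbp and Arntl. Lct, the lactase gene, is in the list of sugar, peptide and sodium genes and also among the proximal markers. Over all 14 other settings the count of that list ran from 1 to 7. None of 13 genes of lipid absorption and 1 of 7 of bile acid uptake, the receptor gene Nr1h4 (-0.29), reached an unadjusted p under 0.05, against 5.15% of all genes. Nr1h4 no longer did without water mouse 4, water mouse 5, low mDP PAC mouse 1, low mDP PAC mouse 4, medium mDP PAC mouse 2 or medium mDP PAC mouse 4. Of the lipid absorption genes, 4 were higher under the ranking by Nr1d1 and Npas2, the highest count over all 14 other settings.

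Genes of PPAR alpha and ketogenesis were below 0 in 9 of 13, against 52.5% of all genes (median -0.23), with 4 lower and 1 higher at an unadjusted p under 0.05, against 2.62% and 2.53%. Pdk4, which spares glucose, had 4.35, 3.71, 2.41, 8.40 and 8.32 FPKM in the high-ratio and 11.1, 13.9, 4.33, 18.5 and 13.0 FPKM in the low-ratio mice. Of the low-ratio mice, medium mDP PAC mouse 3 was within the high-ratio range (log2 fold change -1.10, edgeR unadjusted p = 0.0303, adjusted 0.923). The thioesterase genes Acot1 and Acot2 had log2 fold changes of -0.83 and -0.59. Ppara itself, named after its values were seen, was the 1 higher member, at 0.20, and no longer reached this threshold without low mDP PAC mouse 1, low mDP PAC mouse 4 or any 1 of medium mDP PAC mice 1 to 4. The count of 4 lower was 2 without medium mDP PAC mouse 1, medium mDP PAC mouse 4, water mouse 4 or water mouse 5, and 6 without medium mDP PAC mouse 3. The median was -0.07 without low mDP PAC mouse 4 and -0.13 without water mouse 4 or water mouse 5. Under the ranking by Nr1d1 and Npas2 none was lower at an unadjusted p under 0.05, and the median was -0.02. Over all 14 other settings 0 to 5 were lower.

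All 8 tested genes of antimicrobial and epithelial defence were below 0, against 52.5% of all genes (median -0.51), of 9 in the list. The summed FPKM of the list overlapped, at 1251 to 6583 in the high-ratio and 1521 to 6009 in the low-ratio mice. It was 1408 to 15776 in the middle mice. For Saa1 (44.6 FPKM) and Pla2g2a (51.9 FPKM) the mean of the middle mice did not lie between the means of the compared groups. By exact permutation without covariate, p was 0.071 for Reg3a, 0.127 for Pla2g2a and 0.159 for Saa1. In edgeR, Reg3a (-0.31), Pla2g2a (-0.28) and Saa1 (-1.90) reached an unadjusted p under 0.05, against 2.62% of all genes that were lower. This count of 3 was 0 without medium mDP PAC mouse 1 and 1 without low mDP PAC mouse 4, low mDP PAC mouse 1, medium mDP PAC mouse 2, medium mDP PAC mouse 3 or medium mDP PAC mouse 4. The median was -0.32 without medium mDP PAC mouse 1, and it was -0.28 without medium mDP PAC mouse 2 and -0.26 without medium mDP PAC mouse 4, with 1 member then above 0 in each. Under the ranking by Nr1d1 and Npas2 the count was 5 of 8, against 2.79% of all genes, with a median of -1.23. It was 0 of 8 with 7 against 7 mice and with the ratio as a number over 15 mice, 1 without the treatment covariate and 6 with the replicate block, and all tested members stayed below 0 over all 14 other settings. Reg3b, a lectin that the epithelium secretes against bacteria, varied more within than between the groups, at 1748 ± 1428 and 2673 ± 1218 FPKM (SD, n = 5, edgeR unadjusted p = 0.0857). The markers of follicle B cells, which show lymphoid tissue in a piece, summed to 5.86 to 232 FPKM in the high-ratio and 8.36 to 221 FPKM in the low-ratio mice. Their 8 genes were below 0 (median -0.66), none at an unadjusted p under 0.05. Without medium mDP PAC mouse 3 the median was -0.22, and it ran from -2.33 without medium mDP PAC mouse 1 to -0.01 without water mouse 4 or water mouse 5. The direction turned over with the replicate block, where all 8 were above 0 and higher at an unadjusted p under 0.05 (median 1.81). Plasma cell markers were below 0 in 4 of 5 (median -0.47), with Jchain, of the antibody J chain, at -0.47 (edgeR unadjusted p = 0.0311), and summed to 298 to 441 FPKM in the high-ratio and 403 to 719 in the low-ratio mice, of which medium mDP PAC mouse 3 was the highest and the other 4 reached 449. Without that mouse 3 of 5 were below 0 (median -0.24). Macrophage markers were below 0 in 7 of 7 (median -0.17), with Csf1r, a growth factor receptor, at -0.25 (edgeR unadjusted p = 0.0216), and summed to 158 to 254 FPKM in the high-ratio mice. In the low-ratio mice medium mDP PAC mouse 3 alone, at 350.0 FPKM, was above that range, and the other 4 had 153 to 251 FPKM. Without it the macrophage markers were below 0 in 3 of 7 (median 0.05). T cell markers were below 0 in 5 of 6 (median -0.19), none at an unadjusted p under 0.05, in 3 of 6 without that mouse (median -0.02) and in 2 of 6 with the replicate block (median 0.26). The part of these cells in the results was not tested. None of 7 MHC class II, 11 unfolded protein response and 12 proliferation genes reached an unadjusted p under 0.05, a count near the 5.15% of all genes.

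**Figure D4:**
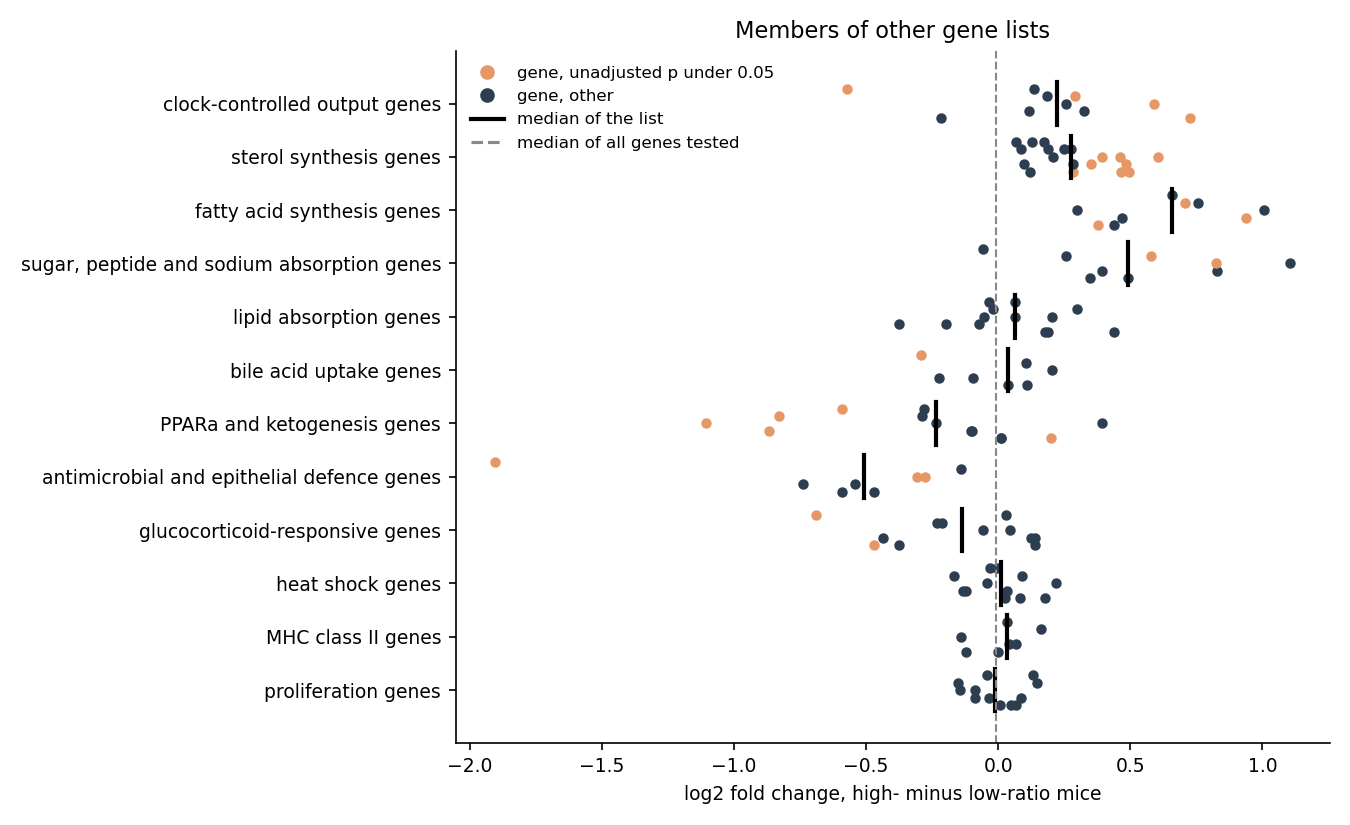
Log2 fold change between high-ratio and low-ratio mice of each tested member of 12 other gene lists; orange points reached an unadjusted p under 0.05, black bars give the median of a list and the dashed line the median of all genes tested. The points of sterol and fatty acid synthesis lie above 0 and those of antimicrobial defence below 0, while heat shock, MHC class II and proliferation genes lie around 0.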

How the data were processed

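RNA of ileum tissue from 15 mice was sequenced as paired-end reads on a BGISEQ-500. Per the methods, the authors cleaned the reads with SOAPnuke and mapped them to mm10 with Bowtie2, whereas the submitters' processing notes name HISAT and DESeq2. Per gene, the authors deposited expected counts (estimated read pairs without normalization), and 88.6% to 89.5% of a mouse's values were whole numbers. The counting tool was not given in the sources used here. The deposited FPKM values were scaled by the authors to gene length and library size. Genes under 0.01 FPKM were not listed and were taken as 0. The files listed 17752 genes in any mouse and 15000 in every mouse. Libraries held 15963086 to 17903886 expected counts. Errors are the spread between mice, which holds counting error too, and the 2 were not separated.

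After rounding, genes were tested in edgeR 4.0.16 (TMM, filterByExpr, quasi-likelihood fit with treatment as covariate, 6 residual degrees of freedom) in R 4.3.3. Fold changes are given as high-ratio minus low-ratio mice on the log2 scale. The SE of a fold change was derived from its size and the F statistic of its test. P-values were adjusted by Benjamini-Hochberg over all genes tested except Dbp and Arntl. DESeq2 1.42.0, limma 3.58.1 (voom), other normalizations, filters, group sizes and rankings, and leaving out each mouse were alternatives. Exact permutation tests used log2(FPKM + 0.1) and scipy 1.17.1. Python was 3.11.15, with matplotlib 3.10.9 for figures. The code was tested on simulated data.

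The text names the genes of the clock lists, other genes with an adjusted p under 0.05, and from each other list up to 4 of the members with the smallest p, and says where a gene was chosen after its values were seen. Some genes that this rule names are not reported here, and the counts include them. Members and gene lists were chosen with earlier results of these data known. Nothing in the labels ties a replicate number to a shared cage or day. Promoter sequences, gene positions and start sites are RefSeq's for GRCm38.p6.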

Additional observations from a re-analysis of the deposited data

Results flagged for a closer look

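Of 101 sets of 5 mice (1 gene in 1 ratio group) examined for a mouse far from the others, 5 were flagged by Dixon's test, where chance flags about 1 in 20. In the low-ratio mice, medium mDP PAC mouse 4, the lowest of the ranking, stood above the others in Arntl (20.01 FPKM) and in Cry1 (8.6 FPKM). In the high-ratio mice, low mDP PAC mouse 3, the last of that group, was below the others in Nr1d2 (24.7 FPKM), low mDP PAC mouse 4 was below the others in Rora (1.33 FPKM), and water mouse 4 was above the others in Slc15a1 (337.8 FPKM). Rora differed in opposite directions within the low mDP PAC mice (log2 difference of high-ratio minus low-ratio mice -0.24) and the medium mDP PAC mice (0.09). In both, every high-ratio mouse lay on 1 side of the low-ratio mice, and the difference between the treatments was not tested.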

How the results depend on the processing

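The log2 fold changes of 46 named genes kept their direction in every alternative except Rora, which was -0.05 and became 0.11 with the mice ranked by Nr1d1 and Npas2, 0.022 with 7 against 7 mice, 0.010 with the replicate block and the ratio as a number, and -0.096 to 0.052 without each mouse in turn. How many genes passed depended on the method. The 3 genes of the comparison became 35 with DESeq2, 11 with the ratio as a number over 15 mice, and 0 with limma-voom (lowest adjusted p 0.0628), the ranking by Nr1d1 and Npas2 (0.104), 4 against 4 mice (0.133), 7 against 7 mice (0.103) or an adjusted p under 0.01. At an unadjusted p under 0.05 limma-voom, the other ranking and the 2 other group sizes gave 729, 987, 508 and 487 genes. The 2 clock genes became 10 with DESeq2, 8 with the ratio as a number, 1 without the treatment covariate and 0 in those 4 fits, as did the 3 named genes. Without each mouse in turn, the genes called ranged from 0 to 4 and the clock genes among them from 0 to 4. Per2, Per3 and Gramd2, the 3 named genes that passed in the comparison, held 0 to 3 of those called. The number of clock genes at an unadjusted p under 0.05 was 13 or 14 in all of these settings but the ranking by Nr1d1 and Npas2, where it was 12 of the 16 clock genes then tested. The causes of these changes were not tested.

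With the replicate number of the labels as a block, 18 genes passed in the 10 mice, 5 of them clock genes and 4 follicle B cell genes. These 4 were higher in high-ratio mice, with all 8 markers of that list above 0 (median 1.81), the reverse of the fit without the block. Among the 10 mice, number 2 held medium mDP PAC mouse 2 alone and number 5 held low-ratio mice only. The comparison within blocks thus came from numbers 1, 3 and 4. It had fewer residual degrees of freedom than the 6 of the fit without the block. With the block and the ratio as a number over 15 mice 9 passed, 6 of them clock genes. The labels do not say whether a number pairs mice, and correlations between the mice cannot settle it. Of 15 pairs of mice with the same number, 6 had a correlation of their deviations over 0.1 (range -0.32 to 0.46), and 2 of 15 mice correlated best with a mouse of their own number. By pairs of the same number the exact sign-flip p of the ratio between treatments was 0.938, 0.875 and 0.938, and 5 pairs cannot go below 0.0625.

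The small differences of the ratio between treatments changed sign easily. Medium mDP PAC minus water ranged from -0.75 to 0.51 without each mouse in turn, low mDP PAC minus water from -0.40 to 0.48 and medium minus low mDP PAC from -0.78 to 0.48. With Nr1d1 and Npas2, low mDP PAC minus water was -0.037 (exact permutation p = 0.944). With 5 mice per group and 1 water mouse in each, the fit has few degrees of freedom, and the limits of the groups were set by rank in a graded series.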
